A study of Mus musculus with 8 samples.

Results

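MicroRNA precursor genes with a signal above the middle of the array were examined in mouse kidney. A gene belonged to the set when its symbol was Mir followed by digits, when its probe set named no other gene, and when its mean over the 8 arrays lay above 5.216, the median of the means of all 33793 probe sets. Of 467 such precursor genes on the array 113 met the rule, out of 22180 genes with a symbol of their own. The members were chosen by their measured log2 levels, so their height is a description and was not tested. Above that median lay 24.2% of the precursor genes and 58.89% of all genes. The 75th percentile, 6.64, was passed by 5.567% of the precursor genes, 26 in number, and by 32.21% of all genes.

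Whole kidneys were taken at the age of 2 months from 2 wild-type mice, 3 Col4a3-/- mice (here the single mutants) and 3 Col4a3-/-OPN-/- mice (the double mutants), and each kidney was read on 1 array. Col4a3 encodes a chain of the collagen IV network that the filter of the glomerulus rests on, and mice without it are a model of Alport disease. OPN is osteopontin, a secreted phosphoprotein of injured kidney, whose own gene was not analysed here. The sources used here name neither the strain, nor the kind of each deletion, nor any allele common to all groups. Sex was read from Xist and 3 genes of the Y chromosome. Both wild-type arrays, single mutant 2 and double mutant 3 were read as male, and the other 4 as female, so no wild-type female was measured.

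A microRNA gene is transcribed as a long primary transcript, often as part of the intron of another gene. Drosha with Dgcr8 cuts out a hairpin in the nucleus, Dicer1 cuts the hairpin to a mature strand of about the length of the sequences shown here, and an Argonaute protein loads that strand. The seed, bases 2 to 8 of the mature strand, pairs with target messages. In kidney, members of the miR-200 family are known from epithelium, miR-143 from smooth muscle, miR-142 from blood cells and miR-21 and miR-214 from injury. The values are of probe sets that name precursor genes on an array of whole transcripts, while the labelling kit in the labels is one commonly used for small RNAs. Whether a probe set read the primary transcript, the hairpin or the mature strand was not tested, and no value here is a level of a mature microRNA. In whole kidney, fewer cells of a type and less RNA per cell cannot be told apart.

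Mature strands of some of the members on which the comparisons turned are given below 5′ to 3′, from RefSeq (GRCm38.p6), with the seed in capitals. Not every strand of a hairpin is shown. The first group holds precursors that were called, or had some of the smallest p, between a mutant group and wild type in one fit or another.
miR-196a-5p: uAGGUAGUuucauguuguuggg
miR-5123: uGUAGAUCcauaugccauggugug
miR-23b-5p: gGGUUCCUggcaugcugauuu
miR-27a-3p: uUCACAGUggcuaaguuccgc
miR-340-5p: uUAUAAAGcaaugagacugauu
miR-7a-5p: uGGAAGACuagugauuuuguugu
miR-99a-5p: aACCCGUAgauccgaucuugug
miR-339-5p: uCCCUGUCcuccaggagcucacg
miR-3110-5p: uUCUGCCUccccugaaggcuc
miR-3058-5p: uCAGCCACggcuuaccuggaaga
miR-16-5p: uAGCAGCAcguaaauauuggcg
miR-345-5p: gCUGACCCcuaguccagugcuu
miR-3091-5p: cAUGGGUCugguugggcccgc
miR-5103: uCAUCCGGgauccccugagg

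The next group is shown because its members stood high on the array or had some of the smallest p between the mutant groups.
miR-692: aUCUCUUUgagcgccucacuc
miR-703: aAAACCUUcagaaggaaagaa
miR-1954: aCUGCAGAgugagacccuguu
miR-681: cAGCCUCGcuggcaggcagcu

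The last group shows seeds that more than 1 member carries: the seed AUCUUAC in the strands of the neighbours Mir200a and Mir200b, GGCAUCU in miR-680, which both Mir680-1 and Mir680-2 encode, and CUUUGGU in miR-9-5p, which both Mir9-1 and Mir9-3 encode.
miR-200a-5p: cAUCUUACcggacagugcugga
miR-200b-5p: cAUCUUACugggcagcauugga
miR-680: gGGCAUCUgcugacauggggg
miR-9-5p: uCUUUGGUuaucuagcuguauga

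No sequence was at hand for Mir15a, Mir101c, Mir143, Mir1195 or Mir1946a, and no mature strand for Mir874. RefSeq held a hairpin for 88 members, and 135 mature sequences for 85 of them. These carried 129 seeds, of which 6 were held by more than 1 member.

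Mean levels of the members ran from 5.228 to 11.84 on the deposited log2 scale, with a median of 5.799. Most stood low: 64 members had a mean under 6, 15 a mean above 7 and 7 a mean above 8. The highest was Mir5099, at 11.97 and 11.65 in wild type, 11.93, 12.24 and 11.27 in the single mutants, and 11.68, 11.70 and 12.27 in the double mutants, which is at the 99.8 percentile of all genes. Mir449b, of the miR-449 family known from ciliated epithelium, read 11.56 and 11.28 in wild type, 11.47, 11.51 and 11.41 in the single mutants, and 11.71, 11.49 and 11.68 in the double mutants. Its values spanned little, and so did those of Mir703 (mean 10.09) and Mir1954 (mean 8.36). Mir692-1 (mean 10.50), Mir5125 (8.98), Mir1195 (8.55), Mir1956 (7.85), Mir467c (7.79), Mir680-2 (7.72), Mir1946a (7.54) and Mir3058 (7.20) completed the 12 highest. A level is the brightness of a probe set and not an amount per length, so the order of genes is that of signals only. Just inside the threshold lay Mir34b, Mir1931 and Mir5120, each at 5.23, and just outside it Mir455 at 5.21 and Mir181a-2 and Mir1907 at 5.20.

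**Figure D1:**
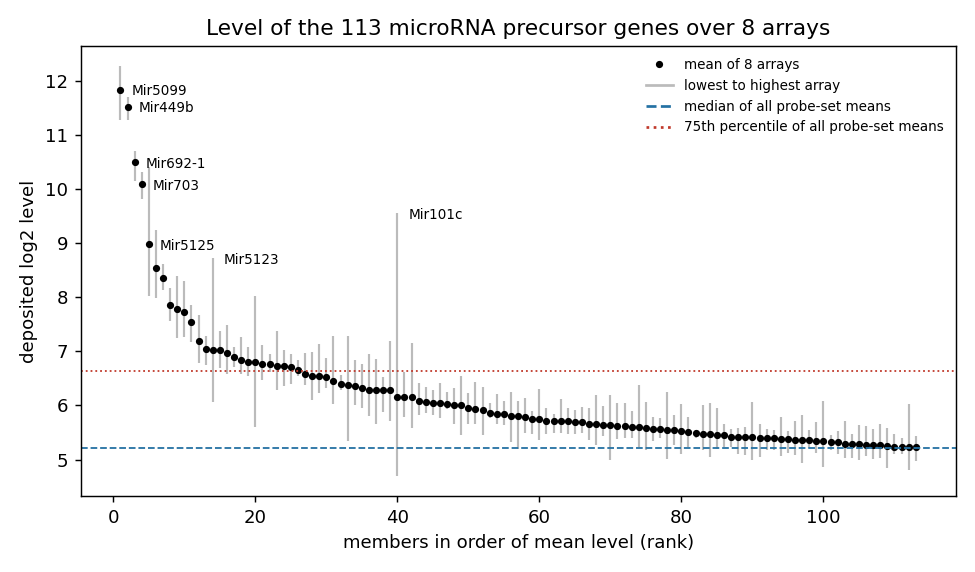
Each black point is the mean deposited log2 level of 1 of the 113 microRNA precursor genes over 8 arrays, in order of rank, and the grey line runs from its lowest to its highest array. The means fall from 11.84 for Mir5099 to 5.228, and the longest grey lines belong to Mir101c and Mir5123.

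Most precursors best known from kidney that had a probe set of their own lay below the threshold, as did most precursor genes. Of all 467 precursor genes on the array 24.2% were members. Of 69 entries of a list of kidney and fibrosis microRNAs 46 had a probe set of their own, with a median of their means of 4.66, and 12 were members: Mir194-1, Mir30d, Mir200a, Mir200b, Mir143, Mir142, Mir34b, Mir196a-1, Mir210, Mir23a, Mir27a and Mir23b. A further 16 were named only by probe sets shared with another gene. Mir192, whose product is abundant in tubules, had a mean of 4.57, below the threshold. Of the 12 only Mir210, known as a hypoxia-responsive gene, at a mean of 7.03, lay above the 75th percentile.

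Single mutants were compared with wild type to ask which precursors differ in the Alport kidney. Of the 113 members 0 were called at an adjusted p under 0.05 (limma, Benjamini-Hochberg over 13062 genes), where 0.0153% of all genes tested, 2 genes, were called. At an unadjusted p under 0.05, 9 members were higher (7.96%, against 8.61% of all genes tested) and 6 lower (5.31%, against 11.3%), together 13.3% against 19.9%. The median difference over the members was 0.08, and -0.02 over all genes tested. Above 0 lay 76 of the 113 members, 67.3% against 46.9% of all genes tested. Without single mutant 2 and double mutant 3, the 2 male mutants, it was 64 members, 56.6% against 46.8%.

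Mir196a-1, a precursor in the homeobox B gene cluster of chromosome 11 (chr11:96265164-96265265, GRCm38.p6), had the smallest p. It read 5.48 and 5.45 in wild type, 6.38, 6.23 and 6.55 in the single mutants, and 6.22, 5.58 and 6.15 in the double mutants. All 3 single mutants lay above both wild-type arrays, and the difference was 0.93 (SE 0.20, adjusted p = 0.1). Mir681, which lies in the span of Cdkl1 on the same strand, read 5.53 and 5.18 in wild type, 6.03, 5.68 and 6.03 in the single mutants, and 5.33, 5.11 and 5.28 in the double mutants. Here too the single mutants did not overlap wild type, with a difference of 0.56 (SE 0.17, adjusted p = 0.151), whereas the double mutants did. Mir15a, whose product restrains the cell cycle, read 6.16 and 6.11 in wild type, 6.67, 6.99 and 6.40 in the single mutants, and 6.59, 6.72 and 6.76 in the double mutants. The difference was 0.55 (SE 0.17, adjusted p = 0.161), and its cluster partner Mir16-1 differed by 0.36 (SE 0.16, adjusted p = 0.247).

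Other members with small p and a higher mean were Mir5103 at 0.36 (SE 0.12), Mir345 at 0.40 (SE 0.14) and the smooth-muscle precursor Mir143 at 0.43 (SE 0.16). Lower means were seen for Mir124a-2, a copy of the neuronal miR-124, which read 5.54 and 5.72 in wild type, 5.14, 5.21 and 5.03 in the single mutants, and 5.25, 5.37 and 5.04 in the double mutants. Neither mutant group overlapped wild type for this gene, and the single mutants differed by -0.51 (SE 0.14, adjusted p = 0.138). Mir3091 read 6.05 and 6.21 in wild type, 5.71, 5.75 and 5.79 in the single mutants, and 5.81, 5.82 and 5.66 in the double mutants. It lay lower in all 6 mutant arrays, with a difference of -0.38 (SE 0.12) in the single mutants. Mir187 differed by -0.39 (SE 0.14) and Mir666 by -0.51 (SE 0.20). Adjusted p of these members lay at 0.138 or more.

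The largest difference of any member was that of Mir101c, a copy of the miR-101 family, and it rested on single arrays. It read 4.85 and 4.70 in wild type, 9.55, 5.05 and 8.01 in the single mutants, and 5.71, 4.82 and 6.63 in the double mutants. Single mutants 1 and 3 and double mutant 3 stood above the rest, and single mutant 2 stood near wild type, so that the difference of 2.76 (SE 1.13, adjusted p = 0.232) came with the widest spread of all members, a pooled SD of 1.56 and a range of 4.86.

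Counted by groups that did not overlap, 23 members were higher in the single mutants (20.4%, against 19.3% of all genes tested) and 13 lower (11.5%, against 23.7%). Among the 23 were, besides those named, Mir680-2, Mir1946a, Mir3058, Mir27a, Mir99a, Mir7-1 and Mir340. Lower were, among others, Mir1956, Mir1199, Mir1938, Mir149 and Mir181d. The share of members that were lower was smaller than that of all genes, a difference that was not tested.

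Double mutants were compared with the same 2 wild-type arrays, so both comparisons share their controls. Again 0 members were called (limma), against 0.122% of all genes tested, 16 genes. At an unadjusted p under 0.05, 2 members were higher (1.77%, against 9.19% of all genes tested) and 3 lower (2.65%, against 10.2%), together 4.42% against 19.4%. The median difference was 0.05 over the members and -0.03 over all genes. Above 0 lay 63 of the 113 members, 55.8% against 45.8% of all genes tested. Without the 2 male mutants the medians were -0.05 and -0.01. Then 44 members lay above 0, 38.9% against 49% of all genes tested. Mir15a differed by 0.56 (SE 0.17, adjusted p = 0.15), with all 3 double mutants above both wild-type arrays. Mir3091 differed by -0.37 (SE 0.12, adjusted p = 0.153) and Mir124a-2 by -0.41 (SE 0.14, adjusted p = 0.173). Mir196a-1 was 0.52 (SE 0.20) higher, about 1.43-fold, with double mutant 2 nearest to wild type. Next came Mir1199 at -0.45 (SE 0.19), Mir3068 at 0.30 (SE 0.14), Mir1938 at -0.32 (SE 0.15), Mir1946a at 0.36 (SE 0.17), Mir16-1 at 0.31 (SE 0.16) and Mir5103 at 0.23 (SE 0.12). Without overlap 9 members were higher and 9 lower, 7.96% each, against 19.1% and 23.4% of all genes tested.

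The comparison of the mutant groups asks what loss of OPN changes on the Col4a3-/- background. Of all genes tested 0, and of the members 0, were called (limma, adjusted p). At an unadjusted p under 0.05 lay 0 members with a higher level in the double mutants, against 1.17% of all genes tested, and 4 with a lower one, 3.54% against 0.758%. Both directions together held 1.93% of all genes. The 4 were Mir681 at -0.67 (SE 0.15), Mir874 at -0.52 (SE 0.17), Mir1927 at -0.40 (SE 0.15) and Mir680-1 at -0.59 (SE 0.23), each with an adjusted p of 1. The values of Mir681 given above show the 3 double mutants below the 3 single mutants and beside wild type. Mir874 read 5.86 and 5.79 in wild type, 6.24, 5.72 and 6.22 in the single mutants, and 5.63, 5.66 and 5.32 in the double mutants. It too separated the mutant groups, and single mutant 2 was the lowest of its group. Mir196a-1 differed by -0.40 (SE 0.18), Mir143 by -0.30 (SE 0.14) and Mir1933 by -0.36 (SE 0.18). Mir345 differed by -0.26 (SE 0.13), Mir598 by -0.20 (SE 0.10) and Mir666 by 0.35 (SE 0.18). The largest difference in size was that of Mir101c, -1.82 (SE 1.01, limma unadjusted p = 0.11). It rested on the high values of single mutants 1 and 3. Without overlap 7 members were lower (6.19%, against 3.03% of all genes) and 1, Mir666, was higher (0.885%, against 2.57%). The median difference was -0.04 over the members and 0.01 over all genes.

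**Figure D2:**
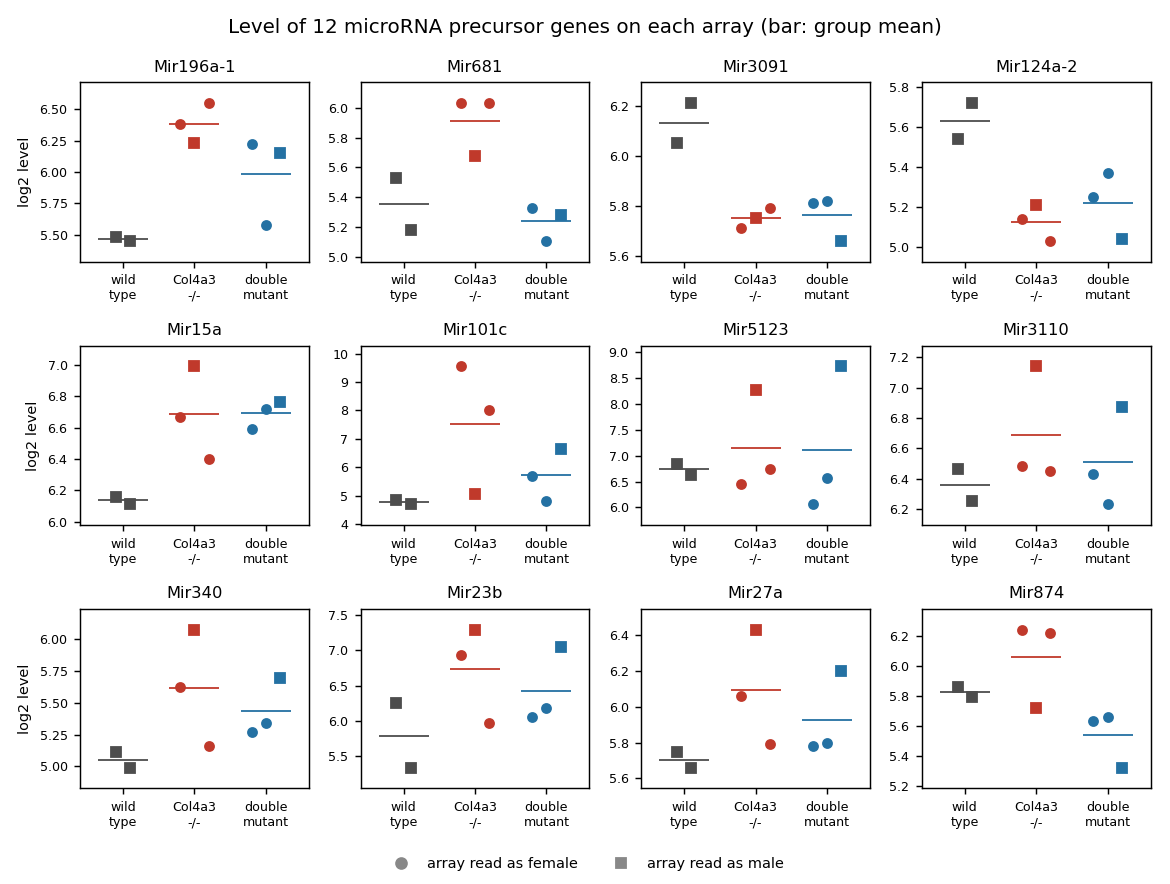
Each panel shows the deposited log2 level of 1 microRNA precursor gene on every array, by group, with a bar at the group mean, circles for arrays read as female and squares for those read as male. Mir681 separates single from double mutants, Mir3091 and Mir124a-2 lie lower in all 6 mutants, and Mir5123, Mir3110, Mir340 and Mir27a are highest in the 1 male of each mutant group.

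The 2 male mutants stood apart for many members. Single mutant 2 and double mutant 3 were both above the other 6 arrays for 26 members, 23% against 8.04% of all genes tested, and both below for 1, Mir92b, 0.885% against 18.7%. Double mutant 3 was the highest array for 36 members (31.9%, against 8.05% of all genes) and single mutant 2 for 31 (27.4%, against 19.7%). Wild type 2 was the lowest for 38 (33.6%, against 15.4%) and double mutant 2 for 32 (28.3%, against 7.42%). Double mutant 3 lay above the gene's own mean for 91 of the 113 members and double mutant 2 for 20. Mir5123, in the span of B4galt1 on its strand at chr4:40850056-40850138, showed the pattern most widely, at 6.84 and 6.63 in wild type, 6.45, 8.26 and 6.74 in the single mutants, and 6.06, 6.57 and 8.72 in the double mutants. Only the 2 male mutants were above both wild-type arrays for this precursor, and without single mutant 2 the single mutants differed by -0.14. Mir5125, in Srrm2, and Mir5124a, in Gcnt2, had ranges of 2.38 and 2.43 and were also highest on these 2 arrays.

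**Figure D3:**
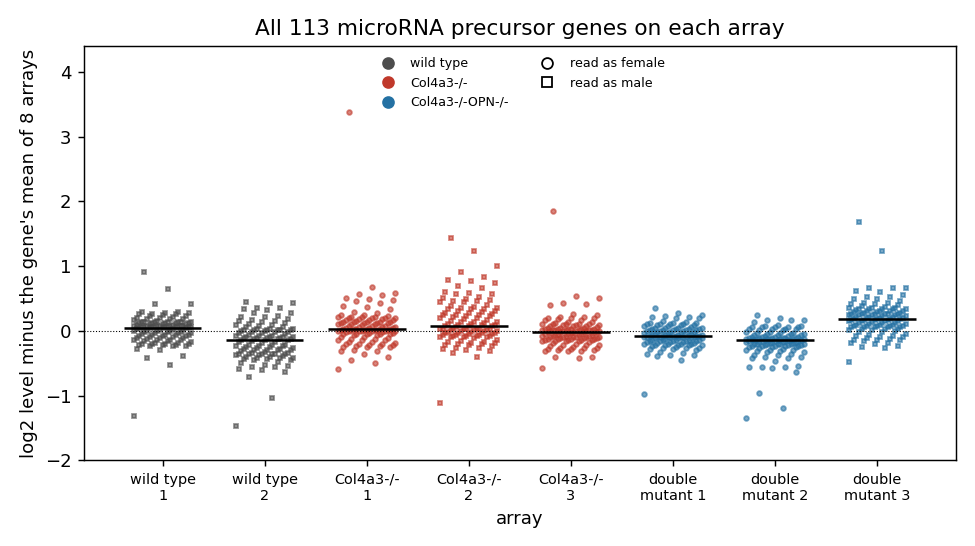
Each point is 1 of the 113 microRNA precursor genes on 1 array, as its log2 level minus its own mean over the 8 arrays, and the black bar is the median of the array. Double mutant 3 has the highest bar and 91 genes above their mean, double mutant 2 has 20, and the lone high point of single mutant 1 is Mir101c.

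The same arrays differed in markers of cell types, whose part in these results was not tested. Over 9 macrophage and white-cell markers the mean log2 level was 6.35 and 6.58 in wild type, 7.34, 8.86 and 7.29 in the single mutants and 8.29, 8.48 and 8.20 in the double mutants. Over 7 fibroblast and smooth-muscle markers it was 7.20 and 7.30 in wild type, 8.25, 9.70 and 8.59 in the single and 9.04, 9.38 and 9.06 in the double mutants. Single mutant 2 was the highest array for both lists, and double mutant 3 the lowest or middle one of its group. Over 5 tubule markers of the labelled tissue the mean was 11.34 and 11.20 in wild type, 11.40, 10.80 and 11.41 in the single and 11.20, 11.37 and 10.72 in the double mutants, so the 2 male mutants were the lowest arrays. With sex in the model the median difference of these 5 was -0.39 in the single and -0.67 in the double mutants. The phosphate transporter gene Slc34a1, 1 of the 5, was called lower in both (-0.79 and -0.75, adjusted p of 0.0312 and 0.0371). Of all genes tested 11.9% and 10.6% were called lower in this fit. It called 5 and 8 of the 9 white-cell markers higher, and 5 and 5 of the 7 fibroblast and smooth-muscle markers. For all genes tested the shares called higher were 5.78% and 5.73%. Among 5 endothelial markers 1, Kdr, was called lower in both, and of 3 fat markers 0 were called. Over 5 endothelial markers the mean log2 level lay between 8.21 and 8.78, and over 3 fat markers between 5.15 and 6.23. The mean over 3 muscle and over 3 adrenal markers stayed at 5.27 or below on every array. Of these, Acta1 at 5.77 and Star at 5.36 were above the threshold. Col4a3 itself had lower values in the mutants without overlap, with differences of -1.29 (SE 0.46) and -1.75 (SE 0.46) and adjusted p of 0.189 and 0.111. The sources used here do not tell where its probes lie relative to the deleted part.

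With the sex of the mouse as a term in the model, differences are read as if within 1 sex, and the term rests on the mutants alone. In this fit 14 members were called higher in the single mutants, 12.4% against 5.78% of all genes tested (755 genes), and 0 lower, against 11.9% (1560 genes). The median difference was 0.22 over the members and -0.06 over all genes. These calls depended on single arrays. Without wild type 2 the count of members was 0, and without single mutant 2 it was 0 as well, while without wild type 1 it was 8, of which 4 were among the 14. It was 12 without single mutant 1 or 3 or double mutant 1 or 2, and 18 without double mutant 3, of which 9 were among the 14. Of these 18, 16 were higher and 2, Mir1956 and Mir666, lower. The counts over all genes tested moved as well. Without wild type 2, 0 genes were called higher and 4 lower, and without single mutant 2, 0 and 0. Without wild type 1 it was 256 and 875, and without double mutant 3 it was 1335 and 1637. The other left-out arrays gave 566 to 626 genes higher and 1146 to 1380 lower.

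Mir5123 showed the largest difference of the 14, 1.77 (SE 0.27, adjusted p = 0.011). Mir23b, of the miR-23b, miR-27b and miR-24-1 cluster, read 6.25 and 5.34 in wild type, 6.93, 7.29 and 5.97 in the single mutants, and 6.06, 6.18 and 7.05 in the double mutants. Wild type 1 overlapped the single mutants here, and the difference was 1.53 (SE 0.38, adjusted p = 0.0345) with the sex term and 0.94 (SE 0.46) without it. Mir27a belongs to the related cluster on chromosome 8 and read 5.75 and 5.66 in wild type, 6.06, 6.43 and 5.79 in the single mutants, and 5.78, 5.80 and 6.20 in the double mutants. It was higher by 0.69 (SE 0.14, adjusted p = 0.0209), whereas its neighbour Mir23a was at 0.32 (SE 0.32). Mir340, in the span of Rnf130, read 5.11 and 4.99 in wild type, 5.62, 6.07 and 5.16 in the single mutants, and 5.27, 5.34 and 5.69 in the double mutants, and it was higher by 0.93 (SE 0.19, adjusted p = 0.0204). Mir7-1, in the span of Hnrnpk, was higher by 0.83 (SE 0.18, adjusted p = 0.0238).

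Mir99a, whose product is known to target the kinase mTOR, read 5.39 and 5.30 in wild type, 5.78, 6.38 and 5.54 in the single mutants, and 5.24, 5.52 and 5.69 in the double mutants. It was higher by 0.89 (SE 0.18, adjusted p = 0.0204). Mir15a was higher by 0.74 (SE 0.16, adjusted p = 0.0248), Mir1946a by 0.63 (SE 0.15, adjusted p = 0.0306) and Mir3058 by 0.87 (SE 0.21, adjusted p = 0.0325). The difference of Mir196a-1 stayed at 0.93 (SE 0.24, adjusted p = 0.0377) and its female minus male difference was -0.01. The 14 were made up by Mir1195, 1.99-fold higher (SE of the log2 difference 0.25), Mir3110 at 0.74 (SE 0.15), Mir339 at 0.83 (SE 0.23) and Mir143 at 0.57 (SE 0.16, adjusted p = 0.0499). Of the 12 members on the kidney list 4 were among them, Mir196a-1, Mir143, Mir27a and Mir23b. Of all members 12.4% and of all genes tested 5.78% were called higher, and the difference in share was not tested. The blood-cell precursor Mir142 differed by 0.80 (SE 0.25, adjusted p = 0.0599) and missed the threshold, as did Mir200a at 0.51 (SE 0.19, adjusted p = 0.095) and Mir200b at 0.40 (SE 0.25, adjusted p = 0.3). Mir194-1, Mir30d, Mir34b and Mir210 differed by 0.18 or less in size.

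In the double mutants the same fit called 7 members higher, 6.19% against 5.73% of all genes tested (748 genes), and 1 lower, 0.885% against 10.6% (1379 genes). The median difference was 0.16 over the members and -0.06 over all genes. Of the 12 members on the kidney list 1, Mir27a, was called. Higher were Mir5123 by 1.74 (SE 0.27, adjusted p = 0.0123), Mir15a by 0.74 (SE 0.16, adjusted p = 0.0242), Mir340 by 0.74 (SE 0.19, adjusted p = 0.0371), Mir7-1 by 0.69 (SE 0.18), Mir1946a by 0.58 (SE 0.15), Mir3110 by 0.56 (SE 0.15) and Mir27a by 0.53 (SE 0.14). The lower one was Mir874, at -0.57 (SE 0.13, adjusted p = 0.0258). It lies in the span of Klhl3, a regulator of the thiazide-sensitive sodium chloride cotransporter, and Klhl3 itself differed by -0.98 (adjusted p = 0.0146). In the single mutants this fit also called Klhl3 lower, by -0.68 (adjusted p = 0.0346), where Mir874 was at -0.05. Without the sex term Klhl3 differed by -0.36 in the double mutants (limma adjusted p = 0.632). Left-out arrays moved the count from 0, without wild type 2, to 9, without single mutant 1. It was 3 without wild type 1, without single mutant 3 or without double mutant 1. It was 4 without single mutant 2, 5 without double mutant 3 and 6 without double mutant 2. Of all genes tested, 38 were called higher and 26 lower without wild type 2, and 642 and 1287 without single mutant 1. The other left-out arrays gave 242 to 1155 genes higher and 650 to 999 lower. Between the mutant groups 0 members and 0 genes were called with the sex term, and 6 members had an unadjusted p under 0.05, against 4.02% of all genes. All 6 were lower in the double mutants (5.31%, against 1.64% of all genes) and 0 higher (against 2.38%).

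**Figure D4:**
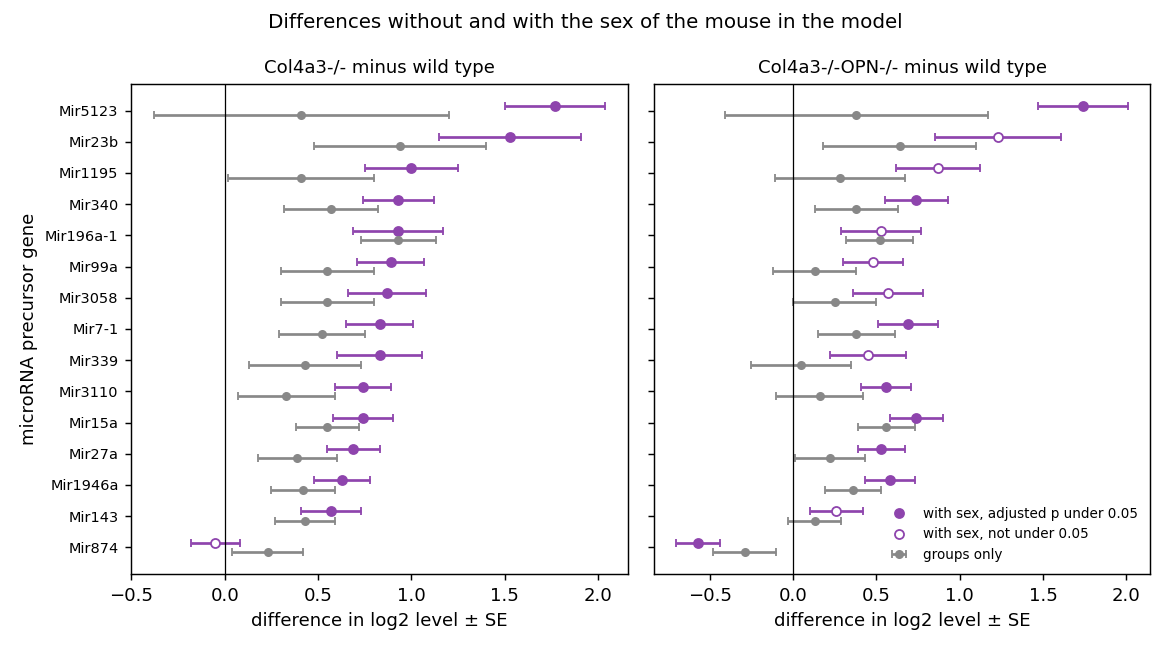
Differences in log2 level from wild type with their SE, for the 15 microRNA precursor genes called with the sex term in either comparison, without the term (grey) and with it (purple, filled where the adjusted p was under 0.05). The purple points of Mir5123 lie at 1.77 and 1.74 and the grey ones at 0.41 and 0.38, while those of Mir196a-1 in the single mutants coincide at 0.93.

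Between the sexes, 3 members were called, all lower in females, with female minus male differences of -2.04 (SE 0.21) for Mir5123, -0.88 (SE 0.20) for Mir1195 and -0.61 (SE 0.12) for Mir3110, and adjusted p of 0.00552, 0.0476 and 0.0304. That is 2.65% of the members, against 1.31% of all genes tested lower and 4.23% higher in females. Whether the 1 male of each mutant group differs from the females by sex or in another way cannot be told apart, as each male is 1 mouse. In the males alone, Mir5123 in single mutant 2 was 1.53 above the mean of the wild-type arrays and in double mutant 3 1.99 above it. For Mir101c these values were 0.27 and 1.85. A test of whether the difference between the mutant groups depends on sex called 30 genes and 0 members, with the smallest adjusted p of a member at 0.0654, that of Mir101c. With both male mutants left out, which leaves male wild type against female mutants, 2 members were called in the single mutants, Mir101c, 16.1-fold higher (SE of the log2 difference 0.49, adjusted p = 0.0172), and Mir680-1 at 0.76 (SE 0.15, adjusted p = 0.0474), and 0 in the double mutants. These are 1.77% and 0% of the members, against 2.63% and 11.5% of all genes tested.

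The spread of the members was much like that of all genes. The median pooled SD within groups was 0.21 over the members and 0.19 over all genes tested, and 22 members had a range above 1 over the 8 arrays. As to sequence, the hairpins of the members had a median length of 85.5 bases and a median GC content of 54%, against 82 bases and 47.1% for the 301 hairpins of precursor genes at or below the threshold. These differences were not tested.

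Of the 88 members with a hairpin entry 51, or 58%, lay within the RefSeq span of another gene on the same strand, against 48.2% of the precursors at or below the threshold. Spans do not tell intron from exon. For 38 of these members the host was itself tested. Members and hosts differed from wild type in the same direction in 19 of 38 pairs in the single mutants and in 24 of 38 in the double mutants, and between the mutant groups in 16 of 38. By their group means some members and hosts differed from wild type in unlike ways. In the single mutants Mir23b and Aopep differed by 0.94 and 0.05, and Mir340 and Rnf130 by 0.57 and -0.15. Mir7-1 and Hnrnpk differed by 0.52 and -0.04, and Mir16-1 and Dleu2 by 0.36 and -0.14. For Mir5125 and Srrm2, a splicing factor gene, the values were 0.48 and 0.51, and for Mir1956 and Eif4e, the cap-binding factor, -0.38 and -0.47. Between the mutant groups Mir681 and Cdkl1 differed by -0.67 and -0.51. Over the 8 arrays the median correlation of the 38 pairs was 0.03, and 4 pairs were above 0.7. Mir23b and Aopep were among these 4, at 0.79, although their group means differed in unlike ways. Mir340, Mir7-1 and Mir16-1 had correlations of -0.69, -0.42 and -0.62 with their hosts.

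Neighbours in a cluster often stood at different levels. On chromosome 8 Mir23a and Mir27a were both members, at means of 5.37 and 5.93, and on chromosome 4 Mir200a and Mir200b, at 5.37 and 5.80. Of the large imprinted cluster on chromosome 12, Mir758 at 5.27 and Mir329 at 5.64 were members, and their neighbours Mir379, Mir376c and Mir154 lay at 4.35, 4.27 and 4.31. Further members near this cluster on the same strand were Mir673 at 6.77, Mir665 at 5.41 and Mir341 at 5.71. Mir191 at 5.49 was a member and its neighbour Mir425 at 5.04 was not. Mir34b at 5.23 stood beside Mir34c at 4.52, Mir194-1 at 5.72 beside Mir215 at 4.55, and Mir344d-2 at 5.75 beside Mir344d-1 at 4.35. Of the pairs that share a mature strand, Mir680-2 and Mir680-1 had means of 7.72 and 5.55, and Mir9-1 and Mir9-3 of 5.33 and 5.36. These are signals of different probe sets.

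The genes that make and load microRNAs were read from a list of 40 entries, of which 30 were on the array and 27 tested. Of the 27, 0 were called in any comparison without the sex term (limma), and 5 in the single (18.5%, against 8.61% of all genes) and 2 in the double mutants (7.41%, against 9.19%) were higher at an unadjusted p under 0.05. With the term 2 were called higher in both mutant groups, 7.41% against 5.78% and 5.73% of all genes, a share near the background. At an unadjusted p under 0.05 in this fit, 11 were higher in the single mutants, 40.7% against 13.4% of all genes. In the double mutants 4 were higher, 14.8% against 13.4%. Lower by this rule were 1 and 3 of the 27, against 21.9% and 21.4% of all genes. These differences in share were not tested. The 2 called were Ddx17, an RNA helicase that works with Drosha, by 0.85 (SE 0.14, adjusted p = 0.0134) and 0.61, and Adar, the RNA-editing deaminase, by 0.61 (SE 0.17, adjusted p = 0.0456) and 0.60. Ddx17 read 8.53 and 8.62 in wild type, 9.07, 9.44 and 9.08 in the single mutants and 8.99, 8.71 and 9.18 in the double mutants. In the single mutants the cleaving enzymes Drosha and Dicer1 differed by -0.16 and 0.45 with the sex term (adjusted p of 0.43 and 0.0919). Without the term they differed by -0.03 and 0.27 (limma adjusted p of 0.91 and 0.394). In that fit Ddx17 and Adar differed by 0.62 and 0.50 (adjusted p of 0.145 and 0.158). Of 11 let-7 precursors, whose symbols fall outside the rule, 3 were tested and 0 called. Of 8 genes that host microRNAs and are named for them or known for it, 2 were tested, Dleu2 and Mir99ahg, and 0 called.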

How the data were processed

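Total RNA of 8 kidneys was read on 1 array each. The authors deposited log2 values, 1 per probe set and array, read as log2 from their range, and array medians lay between 5.18 and 5.25. The sources used here name no normalization or summarization. Probe sets were named through the platform annotation: 23521 named 1 gene, 1814 several and 8458 none. Of the shared ones 136 name a precursor and were kept out of the set. The highest-mean probe set stood for a gene, and 5 host symbols ending in hg were left out, 1 of them above the threshold. The osteopontin gene is not reported here.

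The 13062 genes above the median were fitted in 1 model of 3 groups with limma 3.58.1 (lmFit, eBayes) in R 4.3.3, checked on simulated data, with two-sided p adjusted by Benjamini-Hochberg and called under 0.05. A fold is 2 to the power of the difference. Alternatives were a sex term, other filters and scalings, a replicate block and leaving out each array. Leaving out both male mutants, and arrays or scalings changed within the sex-term fit, were added after the data were seen. Named genes are the 12 highest members, those called or with the smallest p up to 10 in each comparison, kidney-list members, cluster neighbours, hosts and those nearest the threshold. Mir101c, Mir92b, Mir5124a, Mir149, Mir181d and the non-member neighbours singled out beyond these were chosen after their values were seen. Members, lists and rules were chosen with earlier results of these data known. The labels tell of 8 mice but not of litters or preparation days, and precision is limited by the small number of arrays. Sequences and positions are RefSeq's for GRCm38.p6, matched by gene identifier for 88 members. Python 3.11.15 and matplotlib 3.10.9 were used for tables and plots.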

Additional observations from a re-analysis of the deposited data

Results flagged for a closer look

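A signal appeared in data that the comparisons above left out because a probe set names several genes. The probe set shared by Dnm3os, Mir199a-2 and Mir214, a fibroblast transcript and the precursors it carries, was above wild type in all 6 mutants, and their mean exceeded that of the 2 wild-type arrays by 0.35. Its differences of 0.37 (SE 0.18) in the single and 0.33 (SE 0.18) in the double mutants had adjusted p of 0.312 and 0.393 (limma), and of 0.0356 and 0.0444 with the sex term. Taken each alone, the single and the double mutants lay above wild type without overlap for 19.3% and 19.1% of all genes tested. The share of genes with all 6 mutants above wild type was not counted. Groups of 2 and 3 arrays are too small for a search for single outlying arrays.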

How the results depend on the processing

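No member was called under the other filters, scalings (quantile, median centring, cyclic loess), moderations (trend, robust) or the fit on only the 2 groups compared, and of 853 alternative values for named differences 824 kept direction and side of the threshold, 23 passed it and 6 reversed. In the single mutants the 2 genes called became 7 with no filter, 0 with only the 2 groups, 2315 with the sex term (14 members), 343 without both male mutants (2 members) and 0 to 6 with 1 array left out. In the double mutants the 16 called became 6 at the 75th percentile, 10 with no filter, 5 after quantile normalization, 553 with only the 2 groups, 2127 with the sex term (8 members), 1508 without both male mutants and 0 to 972 with 1 array left out, the highest without single mutant 2, where 1 member, Mir15a, was called (0 to 1 over the left-out arrays). The number of members was 26 at the 75th percentile and 72 at the median of the genes' probe sets. Mir5123 reversed to -0.14 without single mutant 2 and to -0.42 without double mutant 3, where Mir3110 reversed to -0.02, and all 3 values were the same without both. With 1 array left out these differences ran from -0.14 to 0.76, -0.42 to 0.91 and -0.02 to 0.30. After cyclic loess the sex-term fit called 997 genes higher and 1151 lower in the single mutants (755 and 1560 before) and 1008 and 978 in the double mutants (748 and 1379), with 16 and 9 members, and median centring gave 12 and 5. Replicate numbers did not pair the arrays (correlations of deviations from -0.523 to 0.185), and with a replicate block 0, 3 and 0 genes and 0 members were called. The cause of these changes was not tested. Brightness near the threshold limits most members: 64 of 113 had a mean under 6.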

Other observations

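Several well-known kidney precursors could be read only through probe sets that also name another gene. The probe set of Vmp1 and Mir21a, the precursor of miR-21, read 7.65 and 7.77 in wild type and between 7.36 and 8.06 in the mutants, so the 3 groups overlapped. That of Mir29b-2, Mir29c and A330023F24Rik, whose mature strands are known to target collagen messages, differed by 0.24 (SE 0.31) in the single and -0.06 in the double mutants.

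The neighbours of the member Mir23b were read in this way. The probe set of Mir27b and Aopep was at 7.39 and 6.63 in wild type, 8.47, 8.81 and 7.32 in the single mutants and 7.20, 7.42 and 8.50 in the double mutants, with a difference of 1.19 (SE 0.52, limma adjusted p = 0.275) in the single mutants and of 1.89 (SE 0.42, adjusted p = 0.0316) with the sex term. Of 2 probe sets of Mir24-1 and Mir3074-1, the brighter was at 5.61 and 5.49 in wild type, 6.26, 6.64 and 6.14 in the single mutants and 5.38, 5.65 and 5.75 in the double mutants. Its difference was 0.80 (SE 0.18, adjusted p = 0.133) in the single mutants, 1.02 (SE 0.15, adjusted p = 0.0168) with the sex term, and 0.04 (SE 0.18) in the double mutants. All 3 single mutants lay above both other groups for this probe set, and the difference between the mutant groups was -0.75 (SE 0.16, adjusted p = 1). The other probe set of this pair, at a mean of 4.41 below the threshold, had overlapping groups and differences of 0.07 in the single mutants and -0.07 between the mutant groups.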
